A study of Mus musculus with 101 samples.

Results

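The proximal stretch of mouse chromosome 1, whose last gene starts at 134.98 Mb, was followed gene by gene in shallow whole-genome copy-number sequencing of mouse mammary tumours. Its members were the genes that the GRCm38 RefSeq annotation places there, without 5 that the choice set aside. The stretch and its example genes were chosen by their segment values in the genotypes compared here, where gain had been seen, so the genotype levels and peaks are given as descriptions. It gave 1344 of the 43513 genes in the deposited tables. A further 3 predicted genes were set aside because they are listed below 3 Mb and their values did not follow those of Xkr4, the first gene after them. The remaining 1341 members were 3.08% of the table and comprised 682 protein-coding genes, 364 pseudogenes, 184 long non-coding RNA genes, 32 microRNA genes and smaller classes. Another 731 placed genes lie on the rest of chromosome 1.

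The series held 98 tumours and 3 normal spleens. All the tumour models lack p53 in the mammary epithelium through a conditional Trp53 allele. The KB1(L1363P)P tumours, 24 in number, also carry the Brca1 missense variant p.L1363P, in the coiled-coil domain through which Brca1 binds Palb2. KB1P tumours (31) lack Brca1 and Trp53, KB2P tumours (25) lack Brca2 and Trp53, and KP tumours (18) lack Trp53 with Brca1 and Brca2 intact. KB1(L1363P)P comprised 12 sarcomatoid tumours, 9 carcinosarcomas and 3 adenocarcinomas. The KB1P tumours were 1 sarcomatoid tumour, 1 carcinosarcoma and 29 adenocarcinomas, all KB2P tumours were adenocarcinomas, and the KP tumours were 10 sarcomatoid tumours, 2 carcinosarcomas and 6 adenocarcinomas. Genotype and histology therefore overlap only in part. The titles of 10 KB1P tumours carry the name KB1PM, and 1 further KB1P tumour has labels that conflict. The labels give neither strain nor age, and do not state that each tumour came from a separate animal. The spread between tumours may therefore be in part technical.

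Copy-number gain means that a stretch of DNA is present in more than the usual pair of copies. It can take in most of a chromosome arm at a low level, or build up a short stretch to many copies, which is called amplification. Tumours that cannot repair double-strand breaks by homologous recombination, the pathway of Brca1, Palb2 and Brca2, are known for many copy-number steps. Among the genes of the stretch, Fzd7 encodes a Frizzled receptor for Wnt ligands, Cdk15 a little-studied kinase of the cyclin-dependent family, and Klf7 a zinc-finger transcription factor of the Krüppel-like family known from neuronal development.

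The promoters of these 3 genes are shown because the genes lie in recurrent peaks described below, which are not the only ones. Each is the RefSeq promoter window on GRCm38.p6, 250 bases before to 50 after the start point used there, written 5′ to 3′ on the gene's own strand. That start is the outer end of the gene for Fzd7, but lies inside the gene for Cdk15 and Klf7. Capitals mark the GC box letters GGGCGG or their reverse complement, and 2 copies overlap in the Fzd7 promoter. The Cdk15 promoter is at chr1:59256656-59256955 on the plus strand, that of Fzd7 at chr1:59481897-59482196 on the plus strand, and that of Klf7 at chr1:64121340-64121639 on the minus strand.
Cdk15: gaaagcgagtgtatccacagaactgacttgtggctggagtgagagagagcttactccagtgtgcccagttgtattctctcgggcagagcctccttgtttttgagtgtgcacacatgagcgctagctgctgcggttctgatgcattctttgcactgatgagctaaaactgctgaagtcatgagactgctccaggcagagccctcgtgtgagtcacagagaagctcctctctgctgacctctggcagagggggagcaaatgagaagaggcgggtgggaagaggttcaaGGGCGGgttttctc
Fzd7: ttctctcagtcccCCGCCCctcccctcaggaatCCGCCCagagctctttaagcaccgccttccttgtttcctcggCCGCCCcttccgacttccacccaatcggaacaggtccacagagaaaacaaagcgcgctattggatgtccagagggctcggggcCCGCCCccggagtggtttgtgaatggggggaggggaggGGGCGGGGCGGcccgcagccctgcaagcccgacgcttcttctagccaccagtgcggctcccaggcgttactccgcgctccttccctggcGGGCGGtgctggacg
Klf7: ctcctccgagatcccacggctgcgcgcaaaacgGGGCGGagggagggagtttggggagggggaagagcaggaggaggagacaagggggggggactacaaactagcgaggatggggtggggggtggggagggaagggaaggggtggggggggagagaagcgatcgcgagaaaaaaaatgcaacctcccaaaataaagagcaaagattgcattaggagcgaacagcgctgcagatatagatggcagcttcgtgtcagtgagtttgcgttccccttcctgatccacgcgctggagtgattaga
The Fzd7 promoter held 24 CpG dinucleotides and 7 GC boxes at 66.7% G or C. The Klf7 promoter held 16 CpG and 1 GC box at 58.3%, and the Cdk15 promoter 7 CpG and 1 GC box at 53.7%. On either strand, GGGCGG was found in 35.7% of the 32851 mouse promoters of the same length. The letters CCAAT occurred 2 times in the Fzd7 promoter and not in the other two, and in 37.4% of all promoters. The letters TATAAA were in none of the 3 windows and in 13.6% of all promoters.

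The tables give a log2 ratio per gene and tumour, a segment value (the log2 ratio after smoothing into runs of equal copy number) and a copy score in which 2 is neutral. A gain call below is a copy score of 3 or more, a loss call a score of 1 or less, and a high-level gain a segment value of at least 1, which is 2 times the reference signal. An extra copy in every cell would give a segment value of 0.585. In nearly all deposited values the copy score is the rounded 2-copy equivalent, which reaches 3 at a segment value of 0.322. The smallest segment value behind a gain call among the members was an exception at 0.303. In bulk DNA the share of tumour cells and the number of copies per cell cannot be told apart. In the spleens no member had a segment value further from 0 than 0.00146, and none had a gain or loss call. The read depth behind each value is unknown. The KB2P tumours share no library series with the other genotypes, so series and genotype cannot be told apart for them. KB2P replicates 10 and 12 were nearly alike over all genes (r = 0.986 between their segment values) and are also given with replicate 12 left out.

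The stretch was raised in part of the KB1P and KB2P tumours and lay near or below 0 in KB1(L1363P)P and KP tumours. Its mean segment value was -0.04 ± 0.11 in KB1(L1363P)P (SD, n = 24), with a lowest tumour at -0.33, a median of -0.01 and a highest at 0.13. In KB1P it was 0.20 ± 0.21 (SD, n = 31), with a lowest of -0.15, a median of 0.18 and a highest of 0.64. In KB2P it was 0.15 ± 0.19 (SD, n = 25), from -0.18 through a median of 0.10 to 0.53. In KP it was -0.05 ± 0.14 (SD, n = 18), from -0.26 through a median of -0.07 to 0.29. The groups overlap in their lower parts. The KB1P median lay above the highest KB1(L1363P)P tumour, while the KB2P median lay below it. Both medians lay below the highest KP tumour. With the KB1PM tumours and the tumour of conflicting labels left out, the KB1P mean was 0.14, since the 10 KB1PM tumours averaged 0.30 ± 0.25 (SD) and the other 21 KB1P tumours 0.15 ± 0.18 (SD). Without replicate 12 the KB2P mean was 0.14. Within the only library series that holds KB1P beside other genotypes, the mean was -0.06 ± 0.11 in 20 KB1(L1363P)P tumours, 0.19 ± 0.19 in 10 KB1P tumours and 0.02 ± 0.03 in 3 KP tumours (SD).

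**Figure D1:**
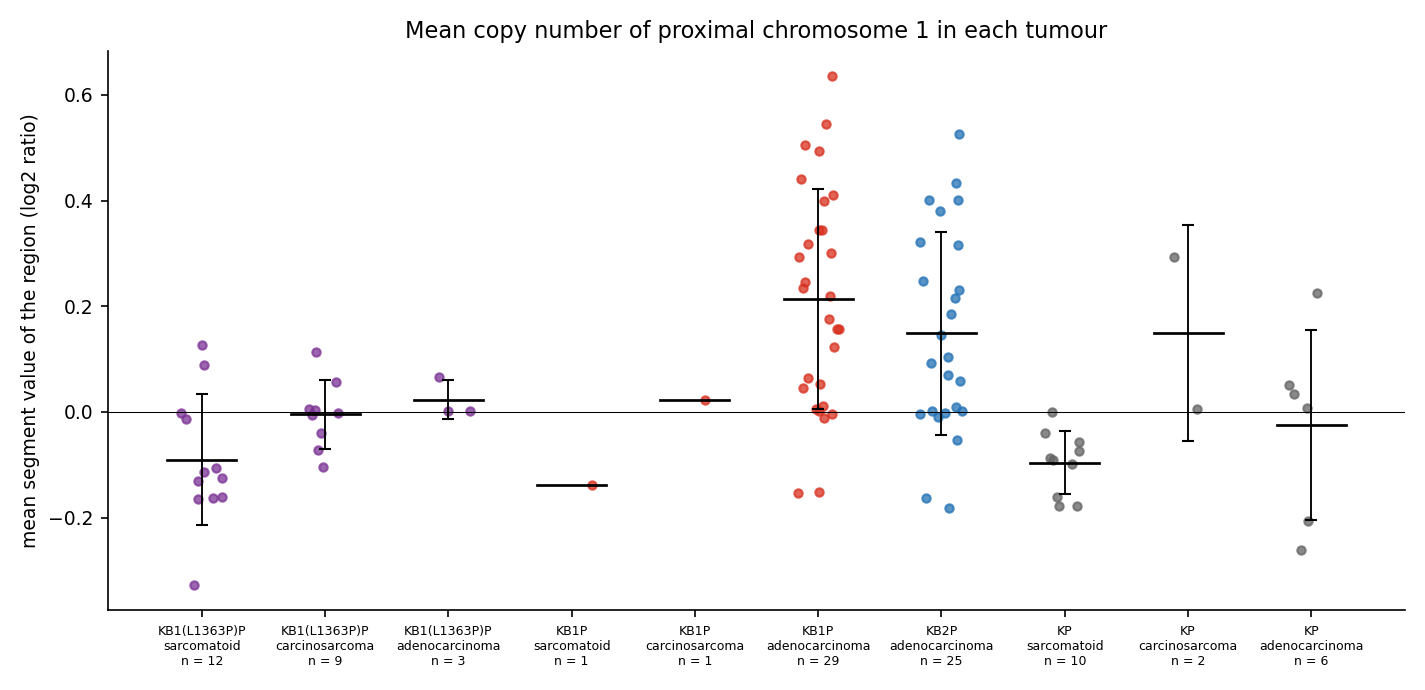
Mean segment value (log2) of the 1341 members in each tumour, by genotype and histology; points are tumours and horizontal lines the group means with SD. KB1P and KB2P tumours spread up to 0.64 and 0.53, while no KB1(L1363P)P tumour passes 0.13 and the highest KP tumour reaches 0.29.

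The histologic types within a genotype were unevenly filled, and their spreads overlapped where a type held several tumours. In KB1(L1363P)P the stretch averaged -0.09 ± 0.12 in sarcomatoid tumours (SD, n = 12), -0.0047 ± 0.065 in carcinosarcomas (SD, n = 9) and 0.02 ± 0.04 in adenocarcinomas (SD, n = 3, individually 0.0013, 0.0022 and 0.066). The single sarcomatoid KB1P tumour was at -0.14 and the single KB1P carcinosarcoma at 0.02, against 0.21 ± 0.21 in the KB1P adenocarcinomas (SD, n = 29). In KP the means were -0.10 ± 0.06 for sarcomatoid tumours (SD, n = 10) and -0.02 ± 0.18 for adenocarcinomas (SD, n = 6), while the 2 carcinosarcomas were at 0.01 and 0.29. In limma with Benjamini-Hochberg adjustment over all genes, no member was called between sarcomatoid tumours and carcinosarcomas of KB1(L1363P)P, where 0.0919% of all genes were, and none had an unadjusted p under 0.05. Between sarcomatoid tumours and adenocarcinomas of KP limma again called no member, against 0.085% of all genes, with none under 0.05 unadjusted. The 10 sarcomatoid KP tumours fill a library series of their own, so histology and series cannot be told apart in KP. Missing the threshold does not show that the types are alike. All 1341 members, many of which share segments, were lower in the sarcomatoid tumours in both comparisons. The median difference was -0.09 in KB1(L1363P)P and -0.09 in KP, beside 0.03 and 0.04 over all genes. The limma fit judged these differences by a spread pooled over all tumours. At Cdk15 the SD was 0.11 in sarcomatoid tumours and 0.05 in carcinosarcomas of KB1(L1363P)P, against 0.89 in KB1P and 0.84 in KB2P. Differences of this size could therefore hardly be called. The titles of 6 KB1(L1363P)P tumours form 3 pairs that share a number, and the labels do not say whether a pair came from the same mouse. In 2 of them the sarcomatoid tumour was lower than its adenocarcinoma partner, at -0.012 against 0.066 and at -0.16 against 0.0013. The pair of carcinosarcomas was at 0.0044 and 0.057.

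The gain took in very different shares of the stretch from tumour to tumour. Gain calls covered 0.078% of the members on average in KB1(L1363P)P, 31.0% ± 36.0 in KB1P, 30.6% ± 33.1 in KB2P and 0.257% in KP (SD, same n). The medians of 17.5% in KB1P and 23.3% in KB2P lay well under the means. At least 1 member was gained in 2 of 24 KB1(L1363P)P, 18 of 31 KB1P, 19 of 25 KB2P and 2 of 18 KP tumours. More than 50% of the members were gained in 9 KB1P and 6 KB2P tumours, and more than 90% in 4 KB1P and 2 KB2P tumours. Whole-stretch gain was thus the exception even in the genotypes that showed it. Losses were found too, in 1 KB1(L1363P)P, 8 KB1P, 9 KB2P and 1 KP tumours, and 5 KB1P and 7 KB2P tumours held gains and losses side by side.

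The rest of chromosome 1 followed the stretch in the KB1(L1363P)P and KP tumours and departed from it in many KB1P and KB2P tumours. In KB1P the stretch averaged 0.20 and the rest of the chromosome 0.10, a difference of 0.10 ± 0.22 (SD over tumours). In KB2P the stretch averaged 0.15 and the rest -0.05, a difference of 0.20 ± 0.30. The difference was 0.002 ± 0.033 in KB1(L1363P)P and -0.002 ± 0.040 in KP. The stretch was more than 0.1 above the rest of the chromosome in 1 of 24 KB1(L1363P)P, 13 of 31 KB1P, 14 of 25 KB2P and none of 18 KP tumours, and more than 0.1 below it in 5 KB1P, 2 KB2P, 1 KP and no KB1(L1363P)P tumours.

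At the distal border the profile did not break. Lgr6 and Ube2t, the last members, and Ptprv and Ptpn7, the nearest placed genes beyond the border, shared group means of -0.05 in KB1(L1363P)P, 0.13 in KB1P, 0.01 in KB2P and -0.05 in KP. They also shared 7 gain calls in KB1P and 5 in KB2P. At the other end, Xkr4 averaged 0.16 with 9 gain calls in KB1P and 0.14 with 7 gain calls in KB2P. The border is thus a working limit and not an edge of gain.

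Along the stretch the mean segment value was highest around 60 Mb in both genotypes. In windows of 5 Mb the mean segment value peaked between 60 and 65 Mb, at 0.42 in KB1P, where 44.2% of gene and tumour pairs were gained, and at 0.39 in KB2P, where 38.8% were. KB2P had a further rise between 20 and 25 Mb, at 0.34, where its share of gained pairs was highest at 40.5%. Col9a1, in that window, was at a high level in 3 KB2P tumours. Its segment values were 1.32, 1.18 and 2.92 in replicates 10, 12 and 17, of which 10 and 12 are the near-identical pair. Most gain calls in KB1P, 15 of 31, fell on Ctla4 and Icos, which encode an inhibitory and a stimulatory receptor of T cells, and on the neighbouring pseudogenes Rpl18-ps1 and Gm11582. In KB2P the most, 11 of 25, were shared by 41 genes, the first of which by position are the pseudogene Rps2-ps2 and the collagen genes Col9a1 and Col19a1, and among which are Cdk15 and Fzd7. In KB1P the fewest gain calls, 6, lay on 81 genes starting at Sp100, a nuclear body protein gene, and in KB2P the fewest, 4, on 14 genes between 120.8 and 130.2 Mb. The lowest means were 0.06 for Fam135a in KB1P and -0.04 for Dpp10 in KB2P. The highest member means of the other genotypes were -0.03 in KB1(L1363P)P (Nabp1 and others) and -0.01 in KP (Gm20118), so they had no peak in their means above 0.

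**Figure D2:**
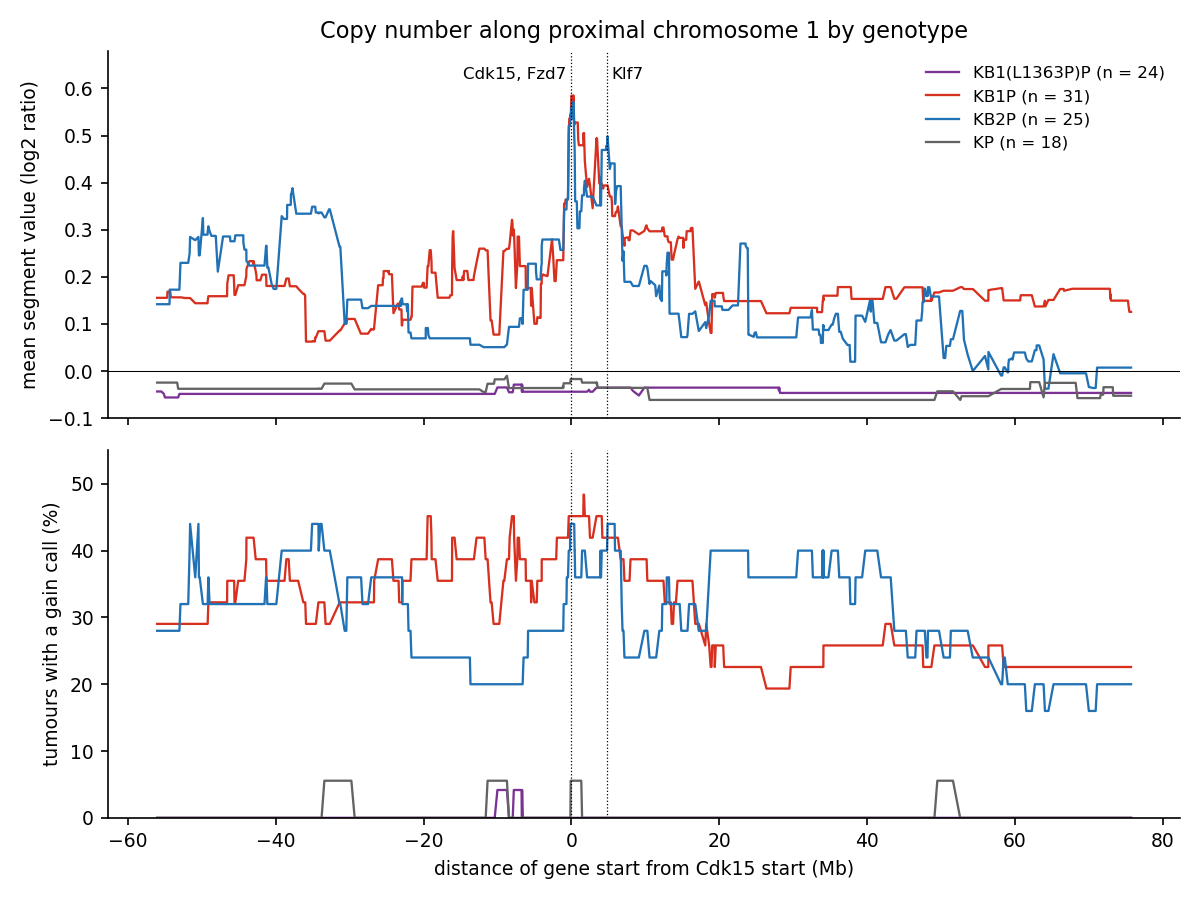
Mean segment value (log2, upper panel) and percentage of tumours with a gain call (lower panel) along proximal chromosome 1, by genotype, against the distance in Mb of each gene's start from that of Cdk15. The means of KB1P and KB2P peak over Cdk15 and Fzd7, and those of KB1(L1363P)P and KP stay just below 0. In KB1(L1363P)P and KP at most 1 tumour is gained per gene.

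KB1P and KB2P tumours also had the more broken profiles. Changes of segment value between neighbouring members numbered 0.792 on average in KB1(L1363P)P, 10.6 in KB1P, 12.6 in KB2P and 1.83 in KP, and up to 66 in a KB1P and 69 in a KB2P tumour. No such step was found in 17 of 24 KB1(L1363P)P, 7 of 31 KB1P, 2 of 25 KB2P and 14 of 18 KP tumours. Per 10 Mb this was 0.060 steps in KB1(L1363P)P, 0.803 in KB1P, 0.959 in KB2P and 0.139 in KP, beside 0.141 in KB1(L1363P)P, 0.567 in KB1P, 0.732 in KB2P and 0.153 in KP on the other autosomes. The stretch was more broken than the tumour's other autosomes in 3 KB1(L1363P)P, 15 KB1P, 12 KB2P and 4 KP tumours, fewer than 50% of each group.

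Within the gain, a short core was amplified again and again. Cdk15 (chr1:59256861-59352497), Fzd7 (chr1:59482147-59486955) and the predicted gene Gm28411 after them were at a high level in 13 tumours, more than any other member. These were 6 of 31 KB1P and 7 of 25 KB2P tumours, with none of 24 KB1(L1363P)P and none of 18 KP tumours. The 3 genes span chr1:59256861-59551204, 294 kb. Gm973, a longer gene within which Gm28411 lies, was at a high level in 5 KB1P and 7 KB2P tumours. All 6 KB1P tumours were adenocarcinomas, as were all the KB2P tumours, and the 3 KB1(L1363P)P and 6 KP adenocarcinomas had none.

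The Cdk15 segment values of the 6 KB1P tumours were 2.15, 2.39, 2.72, 2.27, 2.11 and 2.09 in replicates 16, 18, 21, 24, 26 and 29. These 6 stand well apart, since the next highest KB1P tumour was at 0.88. In KB2P the values were 1.496, 1.18, 2.23, 1.15, 1.099, 3.19 and 1.64 in replicates 1, 7, 8, 10, 12, 17 and 25. The next highest KB2P tumour was at 0.41. The highest values correspond to 6.57 times the reference signal in KB1P replicate 21 and 9.15 times in KB2P replicate 17. Gain calls below the high level were found at Cdk15 in a further 8 KB1P and 4 KB2P tumours. KB2P replicates 10 and 12 are the near-identical pair, and without replicate 12 the count is 6 KB2P tumours. At a segment value of 1.5 or more the count stays 6 in KB1P and is 3 in KB2P. With the KB1PM tumours and the tumour of conflicting labels left out it is 3 of 20 KB1P tumours. None of the 6 KB1P tumours lies in the library series shared with KB1(L1363P)P and KP. In that series Cdk15 was at a high level in none of the 20 tumours from KB1(L1363P)P, the 10 from KB1P and the 3 from KP. It was gained there in no KB1(L1363P)P, 4 KB1P and 1 KP tumours. Its highest KB1P value there was 0.60. In KB2P the core was high in 5 of 20 tumours of 1 series and 2 of 5 of the other.

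Over all tumours of a genotype, Cdk15 averaged -0.04 ± 0.09 in KB1(L1363P)P, 0.58 ± 0.89 in KB1P, 0.56 ± 0.84 in KB2P and -0.02 ± 0.16 in KP (SD, n = 24, 31, 25 and 18). The medians of 0.26 in KB1P and 0.11 in KB2P lay well under these means. Fzd7 had the same value as Cdk15 in 55 of the 56 KB1P and KB2P tumours and differed in KB2P replicate 7, where Fzd7 was at 1.47 and Cdk15 at 1.18. No gene of the whole table had a higher mean than Cdk15 and Fzd7 in KB1P, and none was at a high level in more KB1P tumours. In KB2P 228 genes had a higher mean than Cdk15, the highest of them at 1.02, and 210 a higher mean than Fzd7. More gain calls than Cdk15 were found at 4.67% of all genes in KB1P and 4.71% in KB2P.

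**Figure D3:**
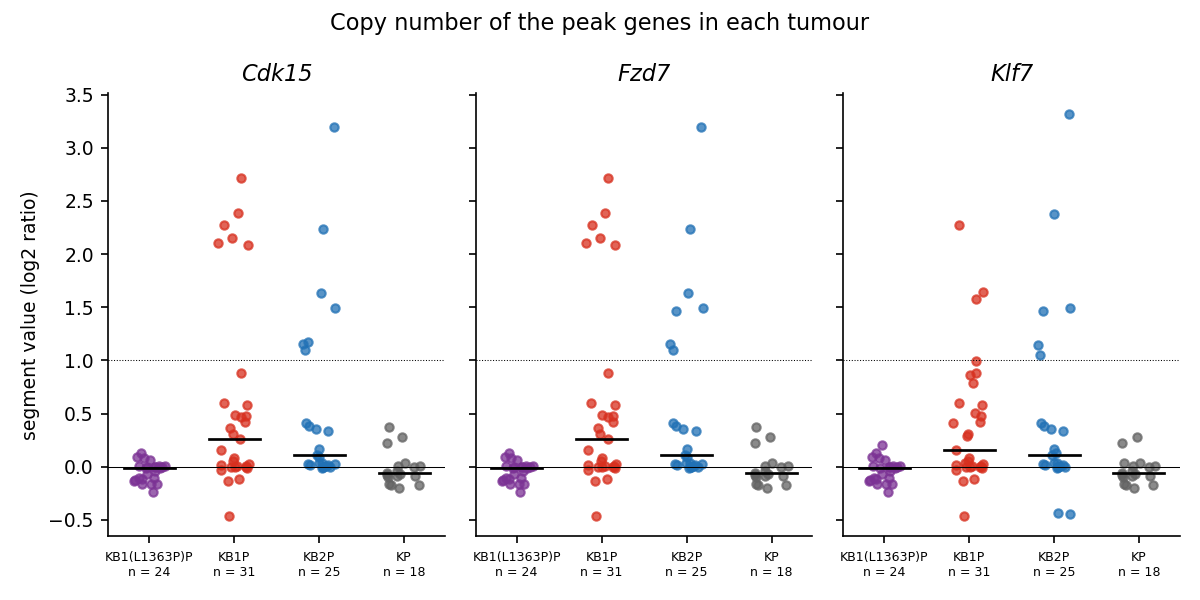
Segment values (log2) of Cdk15, Fzd7 and Klf7 in each tumour by genotype; points are tumours, horizontal lines the medians, and the dotted line marks the high level of 1. Cdk15 is above the line in 6 KB1P and 7 KB2P tumours and in no KB1(L1363P)P or KP tumour.

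To both sides of the core the number of high-level tumours fell off. On the left, the caspase gene Casp8 and its regulator Cflar, which decide on death-receptor signalling, were at a high level in 3 KB1P and 5 KB2P tumours. Between them and Cdk15, Trak2 and Stradb, a pseudokinase gene whose product binds Lkb1, were so in 5 KB1P and 6 KB2P tumours. On the right, Nop58 was so in 5 KB1P and 6 KB2P tumours, and the stretch from the BMP receptor gene Bmpr2 to Ctla4 in 5 KB1P and 3 KB2P tumours. The unbroken high-level intervals around the core were 1.28 to 8.69 Mb long in KB1P (median 3.40 Mb) and 1.43 to 13.6 Mb in KB2P (median 4.59 Mb). Each amplified stretch thus held further genes besides the core.

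Klf7 (chr1:64029448-64122345) belonged to a nearby local peak of the KB2P and the joint count, which overlapped the core only in part. It was at a high level in 3 KB1P and 6 KB2P tumours. In KB1P the count did not peak there, since Nrp2 before Klf7 was high in 5 KB1P tumours and Gm5255 after it in 4. Over both genotypes Nrp2 was high in 10 tumours and Klf7 in 9. The KB1P values were 1.58, 2.27 and 1.64 in replicates 2, 24 and 29. The KB2P values were 1.496, 1.47, 1.14, 1.05, 2.38 and 3.32 in replicates 1, 7, 10, 12, 16 and 17. Without replicate 12, which is nearly identical to replicate 10, Klf7 was high in 5 KB2P tumours. Core and Klf7 were high together in 2 KB1P and 5 KB2P tumours, and the core alone in 4 KB1P and 2 KB2P tumours. Klf7 alone was high in KB1P replicate 2 and KB2P replicate 16. The split depends on the cut-off of 1, since KB1P replicate 21, counted with the core alone, had Klf7 at 0.998. Klf7 averaged -0.04 in KB1(L1363P)P, 0.39 ± 0.60 in KB1P, 0.48 ± 0.88 in KB2P and -0.04 in KP (SD, same n). The peak ran from 63.36 to 65.12 Mb and held 35 genes at the same count, among them Adam23, a cell-surface adhesion gene, and the malate dehydrogenase gene Mdh1b.

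High-level gain was spread over more of the stretch than these 2 peaks. It occurred in 8 KB1P and 8 KB2P tumours and in no tumour of the other genotypes, and 836 of the 1341 members (62.3%) reached it in at least 1 tumour. Only 152 members (11.3%) did so in 5 or more. The 8 KB1P tumours held 32 separate high-level intervals (median 1.09 Mb, up to 11 in 1 tumour) and the 8 KB2P tumours 39 (median 1.77 Mb, up to 9 in 1 tumour). The longest measured 14.9 Mb in KB1P and 15.9 Mb in KB2P.

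**Figure D4:**
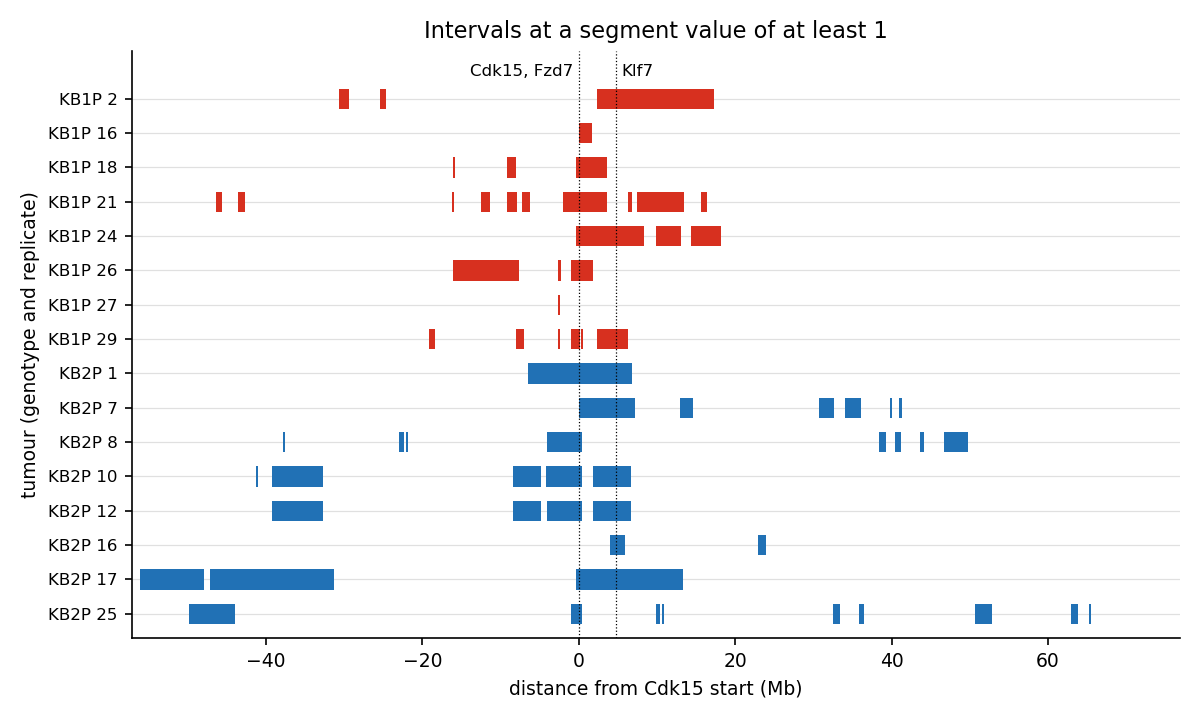
High-level intervals (segment value of at least 1) along proximal chromosome 1 by distance in Mb from the start of Cdk15, in the 8 KB1P and 8 KB2P tumours that have any; each row is a tumour and each bar an interval, drawn at least 0.25 Mb wide. The bars pile up at the core, in 6 KB1P and 7 KB2P tumours.

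The count of high-level tumours reached local maxima at other places too, of which the following are examples. Slco5a1, Prdm14 and Ncoa2, the last a nuclear receptor coactivator, were high in 1 KB1P and 2 KB2P tumours. Tmeff2 and Cavin2 were high in 3 KB1P and 2 KB2P tumours, and Stat4 in 2 KB1P and 2 KB2P tumours. Gm7658 was high in no KB1P and 4 KB2P tumours, and Gm29040 in 3 KB1P and no KB2P tumours. The inositol phosphatase gene Inpp1 and the myostatin gene Mstn were high in 1 KB1P and 3 KB2P tumours, and Hsfy2, listed at 56.64 Mb, in 3 KB1P and 4 KB2P tumours. Between the core and Klf7, Pard3b, a cell polarity gene, and Nrp2, a co-receptor for semaphorins and vascular growth factors, were high in 5 KB1P and 5 KB2P tumours. Beyond Klf7, the stretch with the fatty acid oxidation gene Acadl was high in 3 KB1P and 1 KB2P tumours, and the lymphoid transcription factor gene Ikzf2 was high in 3 KB1P and 2 KB2P tumours. The stretch with Cdk5r2, Fev, Mir375, the hedgehog ligand gene Ihh and the end-joining gene Nhej1 was high in 3 KB1P and no KB2P tumours. KB2P replicates 10 and 12, the near-identical pair, were the only KB2P tumours high at Tmeff2, Cavin2 and Stat4. They were also among the KB2P tumours high at Gm7658, Inpp1, Mstn, Hsfy2, Pard3b and Nrp2. All these counts are small, and the difference between the genotypes was not tested.

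Single high values were also found away from the recurrent core, where the highest Cdk15 value was 3.19. A stretch from 82.13 to 83.21 Mb with Mir6344 and Irs1, the insulin receptor substrate, reached 3.85 in KB2P replicate 16, which is 14.4 times the reference signal. Gm5524 reached 3.40 in KB2P replicate 17, and a stretch from 105.96 Mb with Gm8080 reached 3.15 in KB2P replicate 8. In KB1P the highest value was 2.96, for Gm11599 beside Nrp2 in replicate 29. Each of these values rests on 1 tumour.

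Gain calls in the other 2 genotypes came from single tumours and covered small shares, while losses covered more in 1 tumour of each. The sarcomatoid KB1(L1363P)P replicate 6 had 1.34% of the members gained, with a highest value of 0.35 at Nabp1, a single-strand DNA binding protein gene. The carcinosarcoma KB1(L1363P)P replicate 24 had 0.522% gained, with a highest value of 0.33, and the sarcomatoid replicate 9 had 33.3% of the members lost at a mean of -0.33. In KP, the adenocarcinoma replicate 2 had 1.94% gained, at 0.37 over Cdk15 and Fzd7. The carcinosarcoma KP replicate 6 had the highest KP mean of 0.29 with 2.68% of the members gained, and the adenocarcinoma replicate 4 had 40.9% lost. No member was gained in more than 1 tumour of either genotype. With a lower bar, a segment value over 0.2, the mean share of gained members was 2.40% in KB1(L1363P)P and 11.4% in KP.

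For the comparison of genotypes, limma was fitted to the segment values of all genes in all tumours, with Benjamini-Hochberg adjustment over the whole table and a call at an adjusted p under 0.05. The choice of the stretch had used these contrasts, so the counts are given beside their background and read no further. Neighbouring members share segments, and the contrasts share groups of tumours. Lower in KB1(L1363P)P than in KB1P were 827 members (61.7%), beside 10.9% of all genes called lower and 13.5% called in either direction. Lower in KB1(L1363P)P than in KB2P were 318 members (23.7%), beside 9.42% of all genes called lower and 12.8% in either direction. Between KB1(L1363P)P and KP no member was called, with 0% of all genes, and none by Fisher's exact test on gain calls. In limma none of the members was under 0.05 unadjusted there, beside 15 of all 43513 genes. The fit judged each gene by a spread pooled over all tumours. At Cdk15 the SD was 0.09 in KB1(L1363P)P and 0.16 in KP, against 0.89 in KB1P and 0.84 in KB2P. Small differences between KB1(L1363P)P and KP could therefore hardly be called, and the result does not show that they are alike. Higher in KB1P than in KP were 615 members (45.9%), beside 9.02% of all genes called higher and 13.5% in either direction. Higher in KB2P than in KP were 206 members (15.4%), beside 7.89% of all genes called higher and 12% in either direction. Between KB1P and KB2P no member was called, beside 1.36% of all genes in either direction, and none was by Fisher's exact test. In limma 296 of the 1341 members were under 0.05 unadjusted, beside 7035 of all 43513 genes.

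The median difference over the members was -0.22 for KB1(L1363P)P minus KB1P, beside -0.05 over all genes, and -0.16 for KB1(L1363P)P minus KB2P, beside -0.01. It was 0.22 for KB1P minus KP, beside 0.04, and 0.17 for KB2P minus KP, beside 0.00. Among adenocarcinomas only, where 3 KB1(L1363P)P and 6 KP tumours remain, limma called no member in any genotype comparison. For KB1P minus KP 74 of the 1341 members were under 0.05 unadjusted, beside 3882 of all 43513 genes. For KB1P minus KB2P 190 members were, beside 4690 of all genes, and for the other comparisons none. With the KB1PM tumours and the tumour of conflicting labels left out, 217 members were called for KB1(L1363P)P minus KB1P and 139 for KB1P minus KP, beside 6.31% of all genes called lower and 5.75% called higher in the same fits. Within the library series that holds all 3 genotypes other than KB2P, 783 members were called for KB1(L1363P)P minus KB1P, beside 6.28% of all genes called lower. None was called for KB1P minus KP, beside 1.87% of all genes called higher. In that comparison 134 of the 1341 members were under 0.05 unadjusted, beside 7423 of all 43513 genes.

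The listed genes of the stretch were described by role, with lists drawn up when results of these data were already known. Over all members the median of the group means was 0.17 in KB1P and 0.12 in KB2P, and over all genes of the table -0.01 in KB1P and -0.05 in KB2P. Each count of called genes stands against shares of 61.7% of the members and 10.9% of all genes called lower in KB1(L1363P)P than in KB1P, and of 23.7% and 9.42% called lower than in KB2P. The shares called higher than in KP were 45.9% of the members and 9.02% of all genes for KB1P, and 15.4% and 7.89% for KB2P. A list near the share of the members is no result about that list, and none was tested as a set. Of 13 Wnt, hedgehog and developmental signalling genes, 11 were called lower in KB1(L1363P)P than in KB1P and 3 lower than in KB2P, and 8 were called higher in KB1P and 3 higher in KB2P than in KP. Their median was 0.28 in KB1P and 0.07 in KB2P. Besides Fzd7, the Frizzled receptor gene Fzd5, close to Klf7, averaged 0.36 in KB1P and 0.44 in KB2P and was high in 3 KB1P and 6 KB2P tumours. Bmpr2 averaged 0.53 in KB1P and 0.36 in KB2P. The hedgehog ligand gene Ihh averaged 0.30 in KB1P and 0.07 in KB2P, and the R-spondin receptor gene Lgr6, at the border, had 0.13 in KB1P and 0.01 in KB2P and was at a high level in no tumour.

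Growth factor, chemokine and PI3 kinase signalling was represented by 20 genes. Of these, 14 were called lower in KB1(L1363P)P than in KB1P and 4 lower than in KB2P, and 12 were called higher in KB1P and 4 higher in KB2P than in KP. Their medians of 0.17 in KB1P and 0.11 in KB2P lay at those of all members. Nrp2 averaged 0.47 in KB1P and 0.35 in KB2P, and was gained in 14 KB1P and 9 KB2P tumours. Plekhm3, which lies near Klf7, averaged 0.33 in KB1P and 0.44 in KB2P, while the phosphoinositide phosphatase gene Inpp5d averaged 0.12 in KB1P and 0.07 in KB2P.

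Of 13 kinase and cell-cycle genes, 10 were called lower in KB1(L1363P)P than in KB1P and 7 lower than in KB2P, and 7 were called higher in KB1P and 6 higher in KB2P than in KP. Their medians were 0.17 in KB1P and 0.23 in KB2P. After Cdk15, Stradb was the highest, at 0.54 in KB1P and 0.52 in KB2P with 5 KB1P and 6 KB2P tumours at a high level. Mybl1, which encodes a Myb family transcription factor, averaged 0.14 in KB1P and 0.29 in KB2P. Of 25 transcription and chromatin genes, 15 were called lower in KB1(L1363P)P than in KB1P and 7 lower than in KB2P, and 12 were called higher in KB1P and 5 higher in KB2P than in KP. Their median was 0.18 in KB1P and 0.11 in KB2P. Creb1, the cyclic AMP response factor, averaged 0.37 in KB1P and 0.43 in KB2P, Ino80d, a chromatin remodeller subunit, averaged 0.40 in KB1P and 0.35 in KB2P, and Pax3, a paired-box factor, 0.08 in KB1P and 0.15 in KB2P.

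Of 10 replication and repair genes, 8 were called lower in KB1(L1363P)P than in KB1P and 2 lower than in KB2P, and 7 were called higher in KB1P and 1 higher in KB2P than in KP. Their median was 0.18 in KB1P and 0.10 in KB2P. Orc2, of the origin recognition complex, averaged 0.36 in KB1P and 0.34 in KB2P, Nhej1 0.30 in KB1P and 0.08 in KB2P, the helicase subunit Mcm3 0.20 in KB1P and 0.35 in KB2P, and Ube2t, a ubiquitin ligase partner of the Fanconi anaemia pathway, 0.13 in KB1P and 0.01 in KB2P. Of 7 cell death genes, 6 were called lower in KB1(L1363P)P than in KB1P and 2 lower than in KB2P, and 6 were called higher in KB1P than in KP. None was called between KB2P and KP, and the medians were 0.18 in KB1P and 0.14 in KB2P. Casp8 and Cflar led them, both at 0.36 in KB1P and 0.37 in KB2P.

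Of 12 immune receptor and cytokine genes, 11 were called lower in KB1(L1363P)P than in KB1P and 3 lower than in KB2P, and 11 were called higher in KB1P than in KP. None was called between KB2P and KP, and the medians were 0.21 in KB1P and 0.07 in KB2P. Icos averaged 0.51 in KB1P and 0.39 in KB2P, Ctla4 0.49 in KB1P and 0.37 in KB2P, and the T cell kinase gene Zap70 0.11 in KB1P and 0.14 in KB2P. These are copy numbers of the genes in tumour DNA and not signs of immune cells. Of 10 metabolic genes, 9 were called lower in KB1(L1363P)P than in KB1P and 3 lower than in KB2P, and 7 were called higher in KB1P and 2 higher in KB2P than in KP. Their median was 0.28 in KB1P and 0.19 in KB2P. Mdh1b averaged 0.39 in KB1P and 0.47 in KB2P, the isocitrate dehydrogenase gene Idh1 0.33 in KB1P and 0.35 in KB2P, and the mitochondrial chaperonin gene Hspd1 0.11 in KB1P and 0.19 in KB2P. Of 10 extracellular matrix genes, 5 were called lower in KB1(L1363P)P than in KB1P and 2 lower than in KB2P, and 3 were called higher in KB1P and 2 higher in KB2P than in KP. Their median was 0.15 in KB1P and 0.16 in KB2P. Fibronectin (Fn1) averaged 0.30 in KB1P and 0.21 in KB2P, while Col9a1 and Col19a1 averaged 0.06 in KB1P and 0.35 in KB2P. In none of the 9 lists was a member called between KB1P and KB2P.

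Of the 32 microRNA genes among the members, 31 had a sequence in RefSeq, with 44 mature forms and 41 different seeds. Shown are the mature forms of those at a high level in 3 or more tumours, and of Mir6344, which had the highest value of all, with the seed, bases 2 to 8, in capitals. The 10 forms have 10 different seeds. Of Mir375 only mmu-miR-375-5p was listed, so its other mature form is not shown.
mmu-miR-206-5p: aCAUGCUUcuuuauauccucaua
mmu-miR-206-3p: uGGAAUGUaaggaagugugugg
mmu-miR-133b-5p: gCUGGUCAaacggaaccaaguc
mmu-miR-133b-3p: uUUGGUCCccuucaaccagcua
mmu-miR-7681-5p: aUCCUGUCcuugcccucucu
mmu-miR-7681-3p: aGAAAGGGcacugacaggauag
mmu-miR-6899-3p: uUGUCCUUcugugucuucugcag
mmu-miR-6899-5p: aGCAGAACgcagcgggcauga
mmu-miR-375-5p: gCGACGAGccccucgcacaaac
mmu-miR-6344: gUUUUCCUacuguuucccuuuu
Mir6899, inside the Klf7 peak, was at a high level in 3 KB1P and 6 KB2P tumours. Mir206 and Mir133b, neighbouring genes known from skeletal muscle, were high in no KB1P tumour and in 3 KB2P tumours. The same counts held for Mir7681. Mir206 and Mir133b were at 1.82, 1.68 and 2.18 in replicates 10, 12 and 17. Mir375, known from pancreatic islets, was high in 3 KB1P and no KB2P tumours, and Mir6344 reached the 3.85 given above. Copy number says nothing here of how much of each microRNA the cells made.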

How the data were processed

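Genomic DNA of 98 mammary tumours and 3 spleens had been sequenced at low depth. BWA alignment was followed by counting of the reads in 20 kb bins, per the labels' protocols, and by correction of the bins for GC content and mappability. Per the submitters' processing notes the tools included cutadapt 2.5, BWA 0.7.17, SAMtools 1.10 and Picard with build mm10, while the labels' protocol names a human build. The authors deposited log2 ratios and segmented log2 ratios per gene, and a copy score, which equals the rounded 2-copy equivalent of the segment value in 99.992% of the deposited cells. How segments were made, what the ratios are relative to and how bins were assigned to genes is not given in the sources used here. Without read totals the depth is unknown, and no counting interval can be given; the spread of the log2 ratios around the segments had a median of 0.111 over tumours (0.0865 to 0.331) and limits the precision of single genes.

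Genes were placed with RefSeq on GRCm38.p6 (32691 of 43513 symbols, 30 of them by an older symbol). Samples were grouped by labelled genotype and histology. The tests were limma 3.58.1 in R 4.3.3 (lmFit, eBayes) on segment values of all 98 tumours, with Benjamini-Hochberg adjustment over 43513 genes. Fisher's exact test on gain calls was an alternative, beside the log2 ratios, centring, adenocarcinomas alone, single library series and left-out libraries. The limma step was tested on simulated data. Tables were handled with Python 3.11.15, pandas 2.3.3 and numpy 2.4.6.

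The members and lists were chosen with earlier results of these data known. Genes were named by fixed rules: Cdk15, Fzd7 and Klf7, the members with the highest means and most gain calls per genotype, the border genes, the listed genes at a high level, and the highest and lowest of each list. The flanks of the core and the further local maxima of high-level counts were named after their values were seen. P-values cover only the spread between the sequenced tumours.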

Additional observations from a re-analysis of the deposited data

Results flagged for a closer look

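Dixon's criterion was applied in 17 tests, each of 1 measure in 1 group of 4 to 10 tumours. In 3 of these tests 1 tumour stood apart from the rest. In each of the 3 all other tumours were at 0, where any single value above 0 meets the criterion whatever its size. The chance rate of about 1 test in 20 therefore does not apply. Among the 9 KB1(L1363P)P carcinosarcomas, replicate 24 had 0.522% of the members gained and the others 0. Among the 6 KP adenocarcinomas, replicate 2 had 1.94% gained and replicate 4 had 40.9% lost, with the other 5 at 0 each time.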

How the results depend on the processing

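Of 113 alternative values 90 stayed within their limits and 0 reversed. Counts of called members for KB1(L1363P)P minus KB1P were 529 (8.93% of all genes called the same way) with log2 ratios in place of segment values, 531 (8.63%) with segment values centred on the autosomal median, 0 (0%) with adenocarcinomas only and 217 (6.31%) once the KB1PM tumours and the tumour of conflicting labels were left out. For KB1(L1363P)P minus KB2P they were 0 (0%) with adenocarcinomas only and 746 (11.4%) by Fisher's exact test. For KB1P minus KP they were 380 (7.23%) with log2 ratios, 253 (5.84%) centred, 0 (0.979%) with adenocarcinomas only, 0 (1.87%) within the shared library series and 139 (5.75%) with the same tumours left out. For KB2P minus KP they were 0 (0.00689%) with adenocarcinomas only and 117 (6.71%) without KB2P replicate 12. For KB1P minus KB2P log2 ratios gave 14 called members, 10 higher and 4 lower, beside 2.3% of all genes. Fewer tumours entered the fits that leave some out, and the cause of the other changes was not tested. The percentage of members gained was 2.40 in KB1(L1363P)P and 11.4 in KP at a segment value over 0.2, and 6.57 in KB1(L1363P)P and 12.0 in KP over 0.1. Leaving out 1 tumour at a time gave means of 0.0017 to 0.034 in the KB1(L1363P)P adenocarcinomas, and of 0.0051 to 0.29 in the KP carcinosarcomas, where each value is 1 tumour. In a further alternative the second tumour of each of the 3 linked KB1(L1363P)P pairs was left out. Then 847 members (10.6% of all genes called the same way) were called for KB1(L1363P)P minus KB1P. For KB1(L1363P)P minus KB2P 319 (9.43%) were called, and for KB1(L1363P)P minus KP 0 (0%). That alternative and those without KB2P replicate 12, with the 3 genes set aside, and with other bars for the core were chosen after seeing the data. No paired analysis was possible because the replicate numbers only follow the order of the samples, and the pairs that the titles link join no groups that were compared.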
